A study of Mus musculus with 15 samples.

Results

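The renin-angiotensin system is a chain of peptides and enzymes that sets blood pressure and salt balance, and the kidney holds nearly all of its parts. Renin, released by juxtaglomerular cells, cuts angiotensinogen to angiotensin I, which angiotensin-converting enzyme turns into angiotensin II, the ligand of the AT1 receptors. Aminopeptidase A and neprilysin, membrane enzymes of the proximal tubule brush border and of podocytes, cut the angiotensins further, and the receptor Mas is known to answer to angiotensin-(1-7). The genes described here are the 9 chosen by symbol for this system, out of 23393 genes in each table. They are Agt, the substrate, Ren1, renin, Atp6ap2, the (pro)renin receptor and a V-ATPase accessory protein, Ace, the converting enzyme, Enpep, aminopeptidase A, Mme, neprilysin, Agtr1a and Agtr1b, the AT1 receptors of the mouse, and Mas1. All 9 symbols were found in all 3 tables.

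The kidneys came from C57BL/6 mice homozygous for a floxed allele of the orphan nuclear receptor ERRγ (ERRg fl/fl), a regulator of genes for energy metabolism encoded by Esrrg. Controls carried the floxed alleles alone, and knockout littermates carried the Sim1-Cre transgene as well (ERRg fl/fl;Sim1-Cre), so the deletion is limited to the cells in which the Sim1 sequences of the transgene drive Cre. By title, the 3-week males were 2 controls with 3 knockouts, the 3-week females 2 with 2, and the 3-month males 3 with 3. The source names of 3 libraries, the 3-month knockouts, say female where title and sex field say male. Polyadenylated RNA of 15 kidneys was sequenced, and the data hold 3 comparisons of the genotypes with no value per library, so each value below is a mean over libraries or the authors' own log2 fold change ± its standard error (SE).

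Low mean counts come in whole reads, each with a fixed worth per library, and these gave 4 libraries for 3-week males, 4 for 3-week females and 5 for 3-month males, fewer than the labels in both tables of males. The mean totals were 47478811, 33861809 and 18805533 normalized counts in that order. The tables do not say which genotype is on top of the ratio. Esrrg itself was at 0.82 ± 0.20 in 3-week males, 1.04 ± 0.17 in 3-week females and -0.87 ± 0.57, with no p-value, at 3 months in the authors' deposited table, and reads outside the deleted exons can enter it, so it settles neither the deletion nor the direction. A positive value is read as higher in knockout, since reabsorption is named with ERRγ in the study's title and the proximal tubule markers Lrp2, Cubn, Slc34a1, Aqp1, Fbp1, Hnf4a and Miox had negative medians in all 3 tables (-0.74, -0.29 and -2.21). With the ratio turned in all 3 tables, higher and lower change places everywhere below. Were it turned in 1 table alone, the differences between tables would change in size as well. Those proximal markers had mean counts of at least 9983 in each table, and the adrenal markers Cyp11b1 and Cyp11b2 had means from 0 to 0.396.

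The promoters of the substrate and of the 2 angiotensin-cutting enzymes that differed most at 3 months are shown first, since these members had lower values together there. Each is the stretch of 250 bases before the RefSeq start on GRCm38.p6, 5′ to 3′ on the gene's strand. The Agt stretch lies at chr8:124569707-124569956 on the minus strand, that of the somatic Ace start at chr11:105967698-105967947 on the plus strand and that of Enpep at chr3:129332750-129332999 on the minus strand. Capitals mark the motif TATAAA.
Agt: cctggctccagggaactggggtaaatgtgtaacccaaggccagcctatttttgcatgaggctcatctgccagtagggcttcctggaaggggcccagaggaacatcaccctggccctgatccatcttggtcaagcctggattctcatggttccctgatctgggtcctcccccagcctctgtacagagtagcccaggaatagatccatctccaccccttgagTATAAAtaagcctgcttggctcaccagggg
Ace: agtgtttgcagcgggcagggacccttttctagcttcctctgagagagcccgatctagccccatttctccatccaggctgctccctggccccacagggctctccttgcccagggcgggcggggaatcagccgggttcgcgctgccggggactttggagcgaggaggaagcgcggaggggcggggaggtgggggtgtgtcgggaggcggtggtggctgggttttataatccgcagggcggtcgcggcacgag
Enpep: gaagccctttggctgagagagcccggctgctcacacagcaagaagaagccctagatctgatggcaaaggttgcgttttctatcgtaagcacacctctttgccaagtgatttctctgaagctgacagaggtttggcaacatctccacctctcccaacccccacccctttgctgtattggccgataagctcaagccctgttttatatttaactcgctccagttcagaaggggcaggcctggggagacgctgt
Agt has 1 TATAAA, which begins 30 bases before the start, and neither Ace nor Enpep has it in this stretch. The motif was searched on the gene's strand only and stands in 7.59% of all 32851 such stretches. AAGGTCA, the core of the site that ERR receptors bind, was searched on both strands and stands in 4.08% of all stretches, and the longer TCAAGGTCA, which contains it, in 0.387%. Neither was found in the 11 stretches listed for 8 of the members (Agtr1a has no entry), which says only that these letters are absent from these windows.

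The members fell into an abundant and a scarce set. Levels are compared as the mean normalized count per kilobase of exons, with each table's total scaled to 1000000, over both genotypes together and with no spread between libraries. In 3-week males, Agt stood highest at 113, followed by Atp6ap2 at 70.5, Enpep at 46.1, Ace at 33.2, Agtr1a at 22.4 and Mme at 14.5. In 3-week females, the order of these 6 was the same, with Agt at 111, Atp6ap2 at 72.7, Enpep at 55.5, Ace at 49.3, Agtr1a at 23.2 and Mme at 17.9. In 3-month males Atp6ap2 stood above Agt, at 68.4 against 52.5, and Enpep, Ace, Agtr1a and Mme followed at 37.7, 30.1, 13.8 and 10.5. Whether neighbours in these orders differ beyond the spread of libraries was not tested. Agtr1b and Mas1 were far below, at 0.107 or less and at 0.139 or less on the same scale in all 3 tables. Of the AT1 receptor genes Agtr1a thus had nearly all counts, and 1.13% of its transcript windows of 50 bases also occur in Agtr1b.

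**Figure D1:**
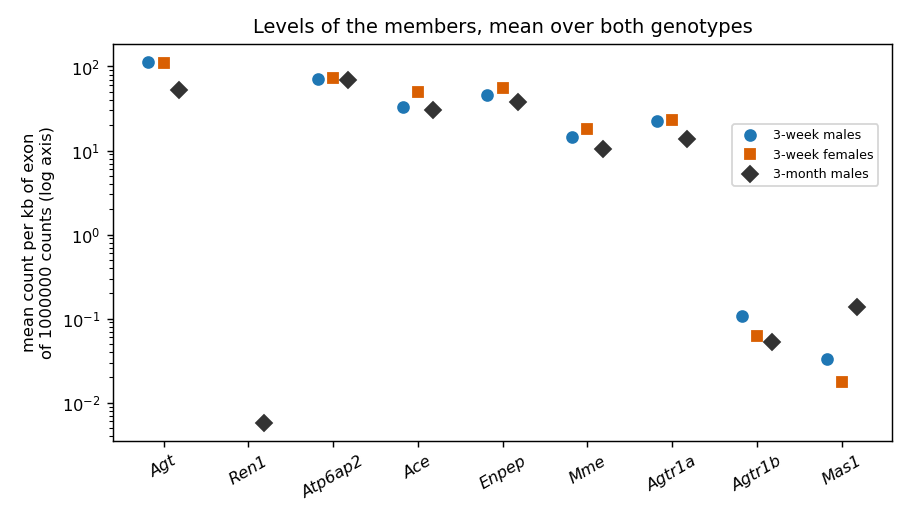
Levels of the 9 members (log axis: mean normalized count per kilobase of exons, of 1000000 counts) in the 3 comparisons, each point a mean over both genotypes. Agt, Atp6ap2, Enpep, Ace, Agtr1a and Mme lie at or above 10.5, Agtr1b and Mas1 at or below 0.139, and Ren1, at 0 in both 3-week tables, has 1 point.

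Angiotensinogen had negative fold changes of like size in all 3 comparisons. Agt (chromosome 8, 124556534 to 124569706, minus strand, GENCODE M21 on GRCm38, the build called mm10) had a mean count of 10144 in 3-week males and a log2 fold change of -0.44 ± 0.16 in the authors' deposited table (adjusted p = 0.0405 by DESeq2, called). In 3-week females the authors' deposited table gave -0.40 ± 0.17 at a mean of 7082 (adjusted p = 0.0884, not called). In 3-month males it gave -0.40 ± 0.18 at a mean of 1866 (adjusted p = 0.0460 in the authors' deposited table, called). The 3 values correspond to ratios of 0.739, 0.758 and 0.760. With both genotypes scaled to the same total count in place of the authors' size factors (totals estimated from the means and fold changes), the value at 3 months turned to 0.18 (adjusted p = 0.360) and the call in 3-week males ended at -0.26 (adjusted p = 0.274). Fat cells also make Agt, and the fat markers Adipoq, Plin1 and Cfd were at 4.68, 4.67 and 5.57 at 3 months in the authors' deposited table, against values between -0.09 and 0.11 at 3 weeks. Of these values only that of Plin1 at 3 months was tested, and it was called higher. All others had the status Outlier and no p-value. The part of fat cells in the value of Agt was not tested.

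Renin cannot be read from these tables. Ren1 (chromosome 1, 133350510 to 133360325, plus strand) was listed at 0 in both 3-week tables, that is 0 reads in each library, and a count of 0 allows an expected count of up to 3 reads over a table (counting error only). At 3 months its mean of 0.179 is exactly the worth of 1 read in 1 of the 5 libraries. The tables also list Ren2, a near-identical renin gene known from other mouse strains and not from C57BL/6, at 0 in all 3 comparisons. Its row stands directly before that of Ren1, between Kiss1 and Etnk2, in tables whose neighbouring rows follow the chromosomes in 98.8% of 20117 pairs. How reads of such a pair were counted is not stated in the labels or tables, and its part in the zeros was not tested. Akr1b7, an aldo-keto reductase known from renin cells, was present, with means of 322, 203 and 77.4 in 3-week males, 3-week females and 3-month males in the authors' deposited table. No level or direction of renin is therefore given.

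The (pro)renin receptor was called in 1 comparison. Atp6ap2 (X chromosome, 12587801 to 12617049, plus strand) was at 0.21 ± 0.24 in 3-week males (mean 8761, adjusted p = 0.656) and 0.41 ± 0.18 in 3-week females (mean 6446, adjusted p = 0.0909) in the authors' deposited table, neither called. At 3 months it was lower, at -0.29 ± 0.11 (mean 3366, adjusted p = 0.0138 in the authors' deposited table). That call depends on the scaling: by total counts the value became 0.29 (adjusted p = 0.0136), a call in the other direction.

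Angiotensin-converting enzyme had the lowest fold change of any member. Ace (chromosome 11, 105967945 to 105989964, plus strand), an enzyme of the brush border and of vessel walls, fell by 2.65 ± 0.40 on the log2 scale in 3-month males, a ratio of 0.160 (mean 2995, adjusted p = 3.62e-10 in the authors' deposited table). The call held with total-count scaling, at -2.07 (adjusted p = 8.77e-07). At 3 weeks Ace had the status Outlier and no p-value in either sex. The authors' deposited table gave -0.59 ± 0.26 in males, at a mean of 8334, and 0.67 ± 0.39 in females, at a mean of 8824. The signs were opposite, 1.26 apart with an SE of 0.47, and the difference was not tested because neither value has a p-value of the authors. With a normal p from the ratio of each value to its SE, adjusted over all rows, neither passed (adjusted p = 0.125 and 0.302).

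The 2 other angiotensin-cutting peptidases gave values near 0 in 3-week males and negative ones at 3 months. Enpep (chromosome 3, 129269175 to 129332720, minus strand), which removes the first residue of angiotensin II, was at 0.01 ± 0.19 in 3-week males, with a 95% interval from -0.36 to 0.38 (mean 10292, adjusted p = 0.985 in the authors' deposited table). It fell at 3 months, to -1.24 ± 0.27, a ratio of 0.423 (mean 3333, adjusted p = 1.95e-05 in the authors' deposited table), and to -0.66 with total-count scaling (adjusted p = 0.0232). Mme (chromosome 3, 63241537 to 63386030, plus strand) was at 0.04 ± 0.21 in 3-week males, with a 95% interval from -0.37 to 0.46 (mean 7963, adjusted p = 0.936 in the authors' deposited table). At 3 months it was at -0.83 ± 0.38, with the status Outlier and no p-value in the authors' deposited table, and at -0.25 with total-count scaling. In 3-week females both were positive, Enpep at 0.62 ± 0.30 and Mme at 0.64 ± 0.28 in the authors' deposited table, again as Outlier. Ace, Enpep and Mme thus lay between 0.62 and 0.67 together in females, where 3 of the 6 members with a mean of at least 10 were Outlier against 5.62% of all tested or Outlier genes. With the normal p over all rows, Enpep and Mme did not pass there (adjusted p = 0.161 and 0.119).

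The AT1a receptor fell in 2 comparisons. Agtr1a (chromosome 13, 30336441 to 30382867, plus strand), which carries most actions of angiotensin II on vessels, mesangium and tubule, was at -0.29 ± 0.10 in 3-week females (mean 2185, adjusted p = 0.0235) in the authors' deposited table. In 3-month males it was at -1.07 ± 0.13, a ratio of 0.475 (mean 720, adjusted p = 1.57e-16 in the authors' deposited table). In 3-week males the authors' deposited table gave -0.08 ± 0.19 at a mean of 2966, with a 95% interval from -0.46 to 0.29 (adjusted p = 0.849), and total-count scaling turned that value to 0.10 (adjusted p = 0.773). By total counts the call in females ended, at -0.14 (adjusted p = 0.315), and that at 3 months held, at -0.50 (adjusted p = 0.000175). Of the mural and mesangial markers 6 of 6 tested were higher at 3 months, among them Acta2 at 3.16 ± 0.25 and Rgs5 at 1.59 ± 0.23, and Cspg4 was an Outlier at -0.44 in the authors' deposited table. In 3-week females 1 of 3 tested was lower, Pdgfrb at -0.61, and none higher (median -0.31) in the authors' deposited table. The other 4 were Outlier there, Acta2 at 0.45, Tagln at 0.23, Myh11 at -0.52 and Itga8 at -0.67. Endothelial markers were lower in 5 of 5 cases in 3-week females (median -0.67). Of all tested genes 29.8% were higher at 3 months and 10.4% lower in 3-week females. Their part in the values of Agtr1a was not tested. Among 9072 genes tested in all 3 tables at means of at least 100, those nearest to Agtr1a over its 3 log2 fold changes were Tmem189, Ccdc62 and Dennd1a, at Euclidean distances of 0.07, 0.09 and 0.10.

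Agtr1b and Mas1 rested on a handful of reads. The means resolve into whole reads in 1 way each, in libraries that cannot be matched to labels. Agtr1b (chromosome 3, 20314473 to 20367177, minus strand) had 44 reads over 4 libraries in 3-week males (14, 12, 10 and 8), 19 in 3-week females (8, 4, 4 and 3) and 12 over 5 libraries at 3 months (7, 3, 1, 1 and 0). It was tested in 3-week males only, at 0.07 ± 0.44 (adjusted p = 0.957 in the authors' deposited table). Mas1 (chromosome 17, 12841079 to 12868143, minus strand) had 18 reads in 3-week males (10, 5, 3 and 0), 8 in 3-week females (6, 2, 0 and 0) and 39 at 3 months (22, 6, 5, 4 and 2). In 3-month males 1 library thus held 22 of the 39 reads. Mas1 was never tested, and its values of 0.45 ± 0.37, 0.08 ± 0.21 and 0.73 ± 0.70 in the authors' deposited table have 95% intervals that include 0.

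**Figure D2:**
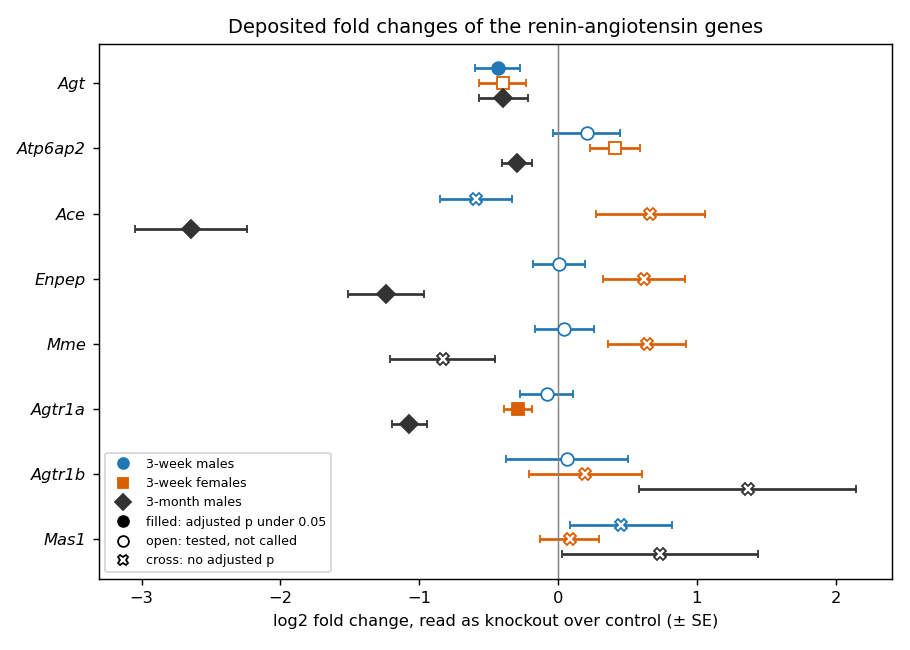
Log2 fold changes, read as knockout over control, with their SE for 8 members in the 3 comparisons (filled: adjusted p under 0.05; open: tested and not called; cross: no adjusted p). The black diamonds of Ace (-2.65), Enpep (-1.24) and Agtr1a (-1.07) at 3 months stand left of their 3-week values, and the points of Agt lie between -0.44 and -0.40, where total-count scaling turns the 3-month values of Agt and Atp6ap2 to 0.18 and 0.29.

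Counted together, 1 of 6 tested members was called in 3-week males (Agt, lower). Of all tested genes there 17.3% were called, which is 8.52% called lower plus 8.81% called higher. In 3-week females 1 of 3 tested members was called (Agtr1a, lower), against 18.7% of all genes (10.4% lower, 8.29% higher). In 3-month males all 5 tested members were lower, against 57.5% of all genes called (27.8% lower, 29.8% higher). The median log2 fold change of the tested members was 0.03, -0.29 and -1.07 in that order, and that of all tested genes -0.01, 0.01 and 0.01. The members' medians rest on different genes and show no trend between the tables, since Outlier members were left out. These were Ace at -0.59 in 3-week males and Mme at -0.83 at 3 months. In 3-week females they were Ace at 0.67, Enpep at 0.62 and Mme at 0.64. Abundant genes leaned lower at 3 months: among 6109 tested genes with a mean of at least 500, which includes the 5 members, 40.4% were called lower and 18% higher, with a median of -0.22. At the same minimum, 10.3% were lower and 5.6% higher in 3-week males, and 12.9% and 6.25% in 3-week females. Total-count scaling adds 0.18, 0.15 and 0.58 to every log2 fold change in the 3 tables and raised the share of higher calls from 50.8% to 75.2%, from 44.2% to 74.0% and from 51.7% to 87.0%. Under it, 3 of the 5 members (Ace, Enpep and Agtr1a) were called lower at 3 months, Atp6ap2 was called higher and Agt was not called.

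**Figure D3:**
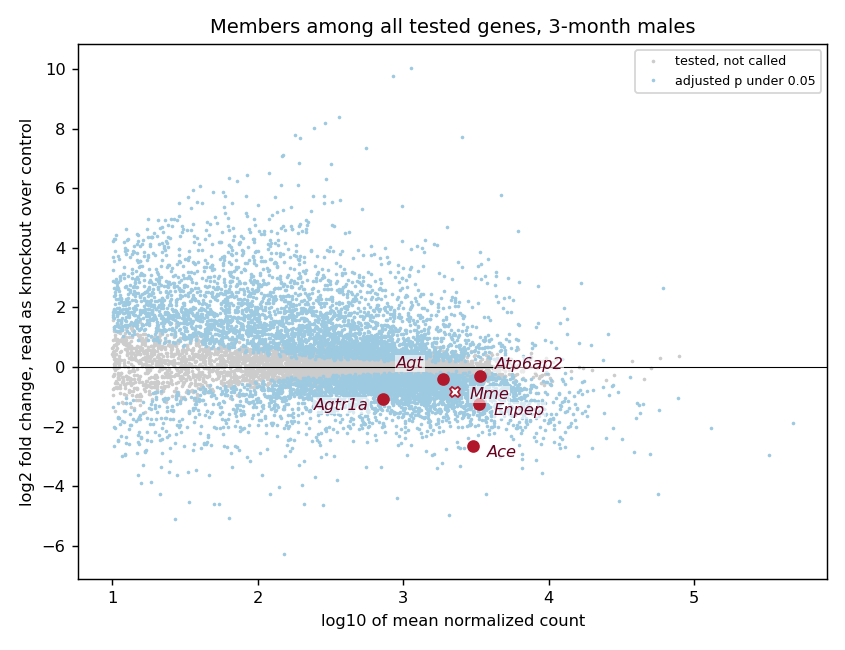
Log2 fold change against the log10 of the mean normalized count for the 12828 genes tested in 3-month males, with 6 members in red. The 5 filled members lie below 0, Ace lowest at -2.65, in a range of abundance where more genes were called lower (40.4%) than higher (18%), and Mme (cross) has no p-value; total-count scaling adds 0.58 to every gene and turns Agt and Atp6ap2 above 0.

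Markers of several cell types were called at both ages. Of all tested genes, 8.52% were lower and 8.81% higher in 3-week males, and 10.4% and 8.29% in 3-week females. At 3 months 27.8% were lower and 29.8% higher, together 57.5%, and at means of at least 500 the shares were 40.4% and 18%. At 3 weeks, where Agt and Agtr1a had 1 call each, 3 of 4 macrophage markers were higher in males and in females (medians 1.34 and 1.15). Podocyte markers were lower in 3 of 5 cases in males and 1 of 5 in females, endothelial markers in 2 of 5 and 5 of 5, and proximal tubule markers in 5 of 7 and 3 of 7. The proximal tubule markers were used above to choose the direction of the ratio, so that they are lower is no separate result at either age. At 3 months the proximal tubule list had a median of -2.21 over 7 genes, of which 6 were Outlier and 1, Aqp1, was called lower at -0.77 ± 0.26 in the authors' deposited table. All 4 macrophage markers were higher, from Csf1r at 1.53 ± 0.24 to Lyz2 at 5.77 ± 0.20 in the authors' deposited table. Among podocyte markers, 3 of 4 tested were lower, Nphs1 at -1.01 ± 0.20 lowest, and Synpo was higher at 0.32 ± 0.13 in the authors' deposited table (3 months). Endothelial markers were mixed, with Cdh5 higher at 0.60 ± 0.23, Kdr lower at -0.62 ± 0.20 and 1 of 3 not called in the authors' deposited table. The part of these cell types in the members' values was not tested, and in whole kidney fewer cells of a type and less RNA per cell cannot be told apart.

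The difference between the ages was tested by a z test of the 2 log2 fold changes, adjusted over the 12355 genes tested in both tables of males, of which 27.7% passed. Enpep was lower by 1.25 at 3 months than at 3 weeks (difference -1.25 ± 0.33, 95% interval from -1.90 to -0.60, adjusted p = 0.00136). Agtr1a likewise differed by -0.99 ± 0.23 (interval from -1.44 to -0.54, adjusted p = 0.000191). Atp6ap2 did not pass, at -0.50 ± 0.26 (interval from -1.02 to 0.02, adjusted p = 0.151), nor did Agt, at 0.04 ± 0.24 (interval from -0.43 to 0.51, adjusted p = 0.921). The largest SE of any gene was 0.44 in the 3-week table and 1.10 in the 3-month table, while Agtr1a had 0.19 and 0.13 and Enpep 0.19 and 0.27. Ren1, with 1 read at 3 months, had an SE of 0.46 there, so the largest SE is no measure of precision. Mas1 in 3-week females had an SE of 0.21 on 8 reads, less than counting error alone would leave. Values of scarce genes were thus pulled toward 0, which also narrows the intervals of Agtr1b and Mas1. How far values were pulled in each table, and for abundant genes, is not stated, and the differences between ages depend on it.

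Between the sexes at 3 weeks, the same test on 13737 genes passed 0 genes, or 0% (237 at an unadjusted p under 0.05). Those 237 are fewer than this threshold passes on average where no gene differs. The test may thus be too cautious on these SEs, and its 0 genes are no evidence that the sexes respond alike. Agt differed by 0.04 ± 0.24 between females and males (interval from -0.42 to 0.50), Atp6ap2 by 0.20 ± 0.30 (from -0.38 to 0.79) and Agtr1a by -0.21 ± 0.22 (from -0.63 to 0.22), with adjusted p = 1.00 each in the z test. The call of Agtr1a in females and of Agt in males is thus not shown to differ from the other sex.

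**Figure D4:**
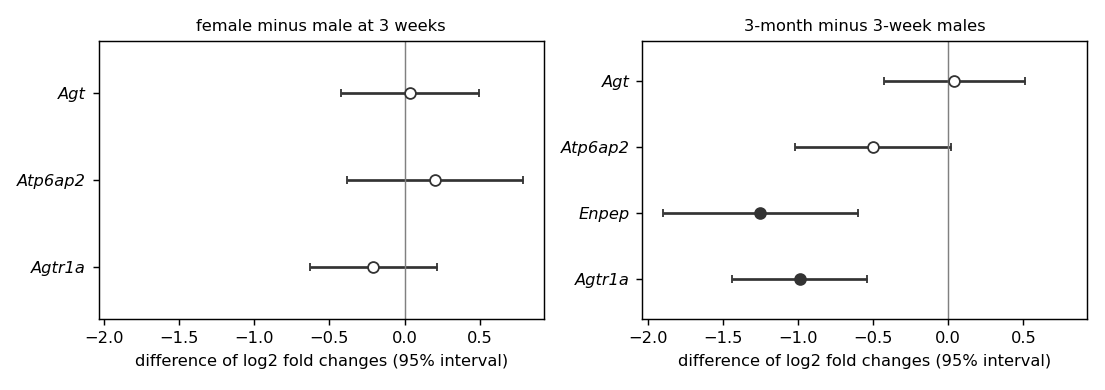
Differences of log2 fold changes with 95% intervals for the members tested in both tables (left: 3-week females minus males; right: 3-month minus 3-week males; filled: adjusted p under 0.05). At right, Enpep (-1.25) and Agtr1a (-0.99) lie clear of 0, and at left all 3 intervals cross 0.

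Other genes that handle angiotensin peptides were called in 1 case each at 3 weeks and in 6 cases at 3 months, there at about the share of all genes called in either direction. Of 17 genes of this list, 15 were tested in 3-week males and 1 was lower, and 13 in 3-week females with 1 lower, against 8.52% and 10.4% of all genes lower. In both cases this was Agtrap, which binds and internalizes the AT1 receptor, at -0.54 ± 0.16 and -0.34 ± 0.11 in the authors' deposited table, and with total-count scaling both calls ended (0 lower in either sex, 2 other genes higher in females). In 3-month males 6 of 10 tested were lower and none higher, with a median of -0.68 (all genes 0.01), where 57.5% of all genes were called and 27.8% were lower. Among them were Prcp, a carboxypeptidase that forms angiotensin-(1-7), at -1.16 ± 0.11, Lnpep at -0.74 ± 0.18, Agtrap at -0.73 ± 0.12, Ctsa at -0.72 ± 0.14 and Nln at -0.65 ± 0.18 in the authors' deposited table. With total-count scaling this count became 2 lower and 4 higher.

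Membrane peptidases of the brush border other than the members, listed with Tmem27 (collectrin), were lower in part at 3 weeks. Of all tested genes 8.52%, 10.4% and 27.8% were lower in 3-week males, 3-week females and 3-month males, and of those with a mean of at least 500 10.3%, 12.9% and 40.4%. Of 9 tested in the list, 5 were lower in 3-week males (median -0.62), among them Dpep1, a dipeptidase, at -0.99 ± 0.25, and the meprin subunits Mep1b at -0.92 ± 0.22 and Mep1a at -0.64 ± 0.16 in the authors' deposited table. In 3-week females 2 of 9 were lower (median -0.13), Dpep1 at -1.30 ± 0.16 and Folh1 at -0.65 ± 0.23 in the authors' deposited table, and total-count scaling made these counts 1 lower and 2 higher. At 3 months 7 of 10 were Outlier, and 2 of the 3 tested were lower, among them Folh1 at -1.86 ± 0.21 in the authors' deposited table. The median over tested and Outlier genes there was -1.72.

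Genes that act on renin cells moved in both directions. Adrb1, the beta-1 adrenergic receptor through which nerves release renin, was lower in all 3 tables, at -1.68 ± 0.32, -1.29 ± 0.38 and -1.39 ± 0.52 in 3-week males, 3-week females and 3-month males in the authors' deposited table. Ptger4, a prostaglandin E receptor that stimulates renin release, was higher in all 3, at 1.17 ± 0.20, 1.06 ± 0.16 and 2.70 ± 0.31 in the authors' deposited table. Slc12a1, the salt sensor transporter of the macula densa and carrier of the thick ascending limb, was lower at 3 weeks, at -0.90 ± 0.21 in males and -1.03 ± 0.17 in females in the authors' deposited table. Nr1h3, a liver X receptor known to act on the renin gene, was lower in all 3, from -0.71 ± 0.15 to -1.12 ± 0.14 in the authors' deposited table. In all, 1 gene was higher and 3 lower of 19 tested in 3-week males, 2 and 3 of 19 in females, and 6 and 3 of 15 at 3 months. Both directions together, these shares were near those of all genes called, 17.3%, 18.7% and 57.5%. Among the 6 were Gja5, the connexin of juxtaglomerular cells and endothelium, at 1.83 ± 0.20, Ptges, a prostaglandin E synthase, at 1.30 ± 0.27, and Ptgs2, cyclooxygenase 2, at 2.70 ± 0.61 on a mean of 12.3 in the authors' deposited table. Gja5 was not called at 3 weeks, at -0.45 ± 0.23 in males and -0.44 ± 0.19 in females. At 3 months 2 macula densa genes had negative values and no adjusted p. Slc12a1 was an Outlier at -0.71 ± 0.63, and Nos1 was at -2.57 ± 0.74 on a mean of 4.89. Total-count scaling turned the count of the list at 3 months to 10 higher and 1 lower.

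Genes of the aldosterone response, downstream of angiotensin II, showed no common direction. In 3-week males 1 of 8 tested was higher and 1 lower, in 3-week females 3 of 10 were lower and none higher, and at 3 months 2 of 8 were higher and 1 lower, against 17.3%, 18.7% and 57.5% of all genes called in either direction. With total-count scaling none was lower in any table, and 4, 2 and 5 were higher. Scnn1g, a subunit of the epithelial sodium channel, was higher in males at both ages, at 0.90 ± 0.16 and 0.76 ± 0.31, and Sgk1, a kinase that keeps the channel at the membrane, was lower at 3 weeks, at -0.64 ± 0.24 in males and -0.70 ± 0.25 in females, in the authors' deposited table. Nr3c2, the mineralocorticoid receptor, was not called in any table, with values between -0.29 and 0.10 in the authors' deposited table.

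**Figure D5:**
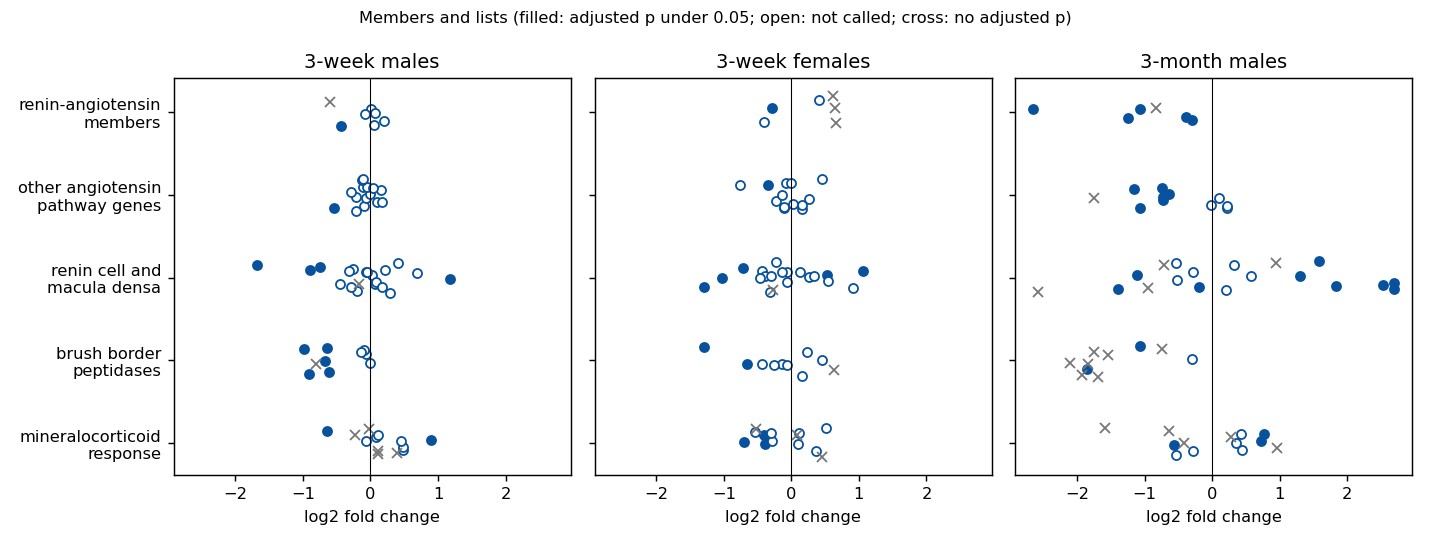
Log2 fold changes of the members and of 4 lists in the 3 comparisons, 1 symbol per gene with a random vertical offset (filled: adjusted p under 0.05; open: not called; cross: Outlier with no adjusted p; Low genes left out). At 3 months the members and the other angiotensin pathway genes have calls on the lower side only (5 and 6), and the renin cell list has calls on both sides (6 higher, 3 lower), counts that total-count scaling changes to 3 lower and 1 higher, 2 and 4, and 1 and 10.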

How the data were processed

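RNA libraries were made with a stranded polyadenylated RNA kit, per the labels' protocols. Per the submitters' processing notes, STAR, HOMER, DESeq2 and the build mm10 were used; the labels give no versions. Per the file headers, the 3 deposited tables hold a mean of normalized counts (unit: signal), the log2 fold change and SE, a p-value, an adjusted p-value and a status. They are the authors' comparisons, normalized separately. Fold change over SE, read as a normal deviate, gave the deposited p-value within 1% in 100% of rows. Low marked means under 10; no label or header states the rule for Outlier. The labels name separate samples of littermates, and p-values measure only the spread between these samples. Mean totals from 18805533 to 47478811 counts limit the precision of scarce genes.

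From these files, Python 3.11.15 (pandas 2.3.3, scipy 1.17.1) took as called the genes with the authors' adjusted p under 0.05, leaving out 27 symbols turned into dates. Differences between tables used a z test with Benjamini-Hochberg adjustment. It was run on simulated log2 differences of 2, larger in size than any tested for a member, with noise drawn from the deposited SEs. Since the test uses the same SEs, that run cannot show whether they suit it. Lengths and gene coordinates came from GENCODE M21 and promoters from RefSeq; Adgre1 was read as Emr1. Named genes were all members, up to 4 called genes of each list with the smallest adjusted p, and the 3 genes nearest to Agtr1a; other genes were named after their values were seen, and 1 list gene is not reported here. Members and lists were chosen with earlier results of these data known.
Alternatives were adjusted p under 0.01 or 0.1, Bonferroni, p over all rows, median centring, means of at least 100 and scaling to total counts. The last adds 1 constant per table to every fold change, from genotype totals implied by each gene's mean and fold change with equal weight per genotype, an approximation.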

Additional observations from a re-analysis of the deposited data

Results flagged for a closer look

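Between 3-week and 3-month males, 2 members differed in their genotype effect by the z test of the difference: Enpep by -1.25 and Agtr1a by -0.99 (adjusted p = 0.00136 and 0.000191 in that test). With total-count scaling of both tables the differences were -0.85 and -0.59.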

How the results depend on the processing

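The counts of members called lower (1 in 3-week males, 1 in 3-week females, 5 in 3-month males) became 0, 0 and 3 at an adjusted p under 0.01, 0, 0 and 2 with Bonferroni adjustment and 0, 0 and 3 with total-count scaling. In 3-week females an adjusted p under 0.1 gave 2 lower and 1 higher. Total-count scaling also gave 1 member higher in 3-week females and 1 in 3-month males, Atp6ap2 in both. It turned the sign of Agtr1a in 3-week males (adjusted p = 0.773) and of Agt (0.360) and Atp6ap2 (0.0136) in 3-month males. Over all rows, the adjusted p of Agt at 3 months became 0.0533.

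For the lists, total-count scaling was chosen after seeing the data. The angiotensin pathway list became 0 lower in 3-week males, 0 lower and 2 higher in 3-week females, and 2 lower and 4 higher in 3-month males. The renin cell list became 2 and 5 higher at 3 weeks (males, females), and 10 higher and 1 lower at 3 months. The brush border list became 1 lower and 2 higher in 3-week females. The aldosterone list became 0 lower in all 3 tables, with 4, 2 and 5 higher. The cause was not tested.

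No paired analysis was possible because the tables hold no values per library and library numbers do not repeat across groups. Leaving out single libraries and a count test were not run, since both need values per library. The scarce genes Agtr1b and Mas1 are limited by read number, and for Ren1 no level can be given.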
